A study of Mus musculus with 12 samples.

Results

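The Rab GTPases were the 59 genes, of 39179 in the count table, whose symbol is Rab followed by a number and at most 1 letter. They were measured in RAW 264.7 cells, a mouse macrophage line of BALB/c origin, by sequencing of bulk RNA libraries. Cells carried a puromycin-selected short hairpin RNA labelled sh-PHLPP1, or the luciferase hairpin sh-Luc as control, and each hairpin was 1 stable line. There were 4 groups of 3 libraries: sh-PHLPP1 with OxLDL (oxidised low-density lipoprotein, 100 µg/ml, 24 h), sh-PHLPP1 untreated, sh-Luc with the same OxLDL dose and time, and sh-Luc untreated. The untreated libraries are recorded at 0 µg/ml and 0 h. Taken as recorded, an effect of OxLDL and one of the 24 h cannot be told apart. All 4 groups had been nucleofected and selected, and replicates 1, 2 and 3 of each group were passages 9, 10 and 11 of its line, so p-values measure the spread between passages and not between independently made lines. With 1 line per hairpin, a hairpin effect and a difference between the lines cannot be told apart.

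Rab GTPases are small switch proteins. Bound to GTP they sit on the membrane of a particular compartment and recruit effectors that move, tether or fuse vesicles, and bound to GDP they return to the cytosol. Guanine nucleotide exchange factors (GEFs) load them with GTP and GTPase-activating proteins (GAPs) switch them off, after a prenyl anchor has been attached by Rab geranylgeranyl transferase. In macrophages, which take up modified lipoproteins, they direct cargo through early endosomes, phagosomes and late endosomes to lysosomes, and direct newly made proteins through the Golgi.

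Libraries held 16020186 to 27422114 counts. In the group of untreated libraries labelled sh-PHLPP1, replicate 1 stood apart, with a correlation of log expression of 0.966 to 0.967 with the other two replicates, and in untreated sh-Luc replicate 2 stood apart with 0.983 to 0.984. Phlpp1, the targeted gene, had 8.65, 8.35 and 7.40 CPM (counts scaled to a common library size by TMM factors) in the OxLDL libraries labelled sh-PHLPP1 and 11.4, 13.5 and 11.4 CPM in OxLDL sh-Luc libraries (log2 fold change -0.57 ± 0.14 SE, adjusted p = 0.00385, edgeR). Without OxLDL it had 17.3, 14.6 and 14.0 CPM in libraries labelled sh-PHLPP1 and 12.4, 14.4 and 13.3 CPM in sh-Luc libraries (0.19 ± 0.13, adjusted p = 0.279), so the untreated libraries are called by their label only. The 9 macrophage markers examined, such as Adgre1 and Csf1r, all had counts, though only 8 passed the filter on low counts. They summed to 12300 to 13560 CPM in OxLDL and 9817 to 11180 CPM in untreated libraries labelled sh-PHLPP1, and to 16090 to 17560 CPM in OxLDL and 14000 to 15550 CPM in untreated sh-Luc libraries, so the lines did not overlap. Osteoclast markers, a fate open to this line, summed to 702 to 826 CPM in OxLDL and 111 to 193 CPM in untreated libraries labelled sh-PHLPP1. In sh-Luc libraries they summed to 407 to 551 CPM with OxLDL and to 257, 690 and 271 CPM untreated, the 690 being replicate 2, which stands apart. Calcr, a defining gene of that list of 9, was at 0 in every library, and the part of the macrophage and osteoclast markers in the results below was not tested. Fibroblast and epithelial markers summed to at most 4.29 CPM, with Epcam, Krt18 and Cdh1 at 0, and lymphoid and endothelial markers to at most 1.24 CPM, with Cd3e and Ncr1 among those at 0.

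Of the 59 Rab genes, 44 passed the filter on low counts and were tested. They are ordered by compartment, following the textbook location of each protein. Rab17, Rab9b, Rab38, Rab36, Rab6b, Rab3c and Rab27b were at 0 in every library. Rab39b, Rab25, Rab3b, Rab42, Rab37, Rab40b, Rab26 and Rab44 had at most 10 counts in a library and were not tested, and the 10 were Rab42 in untreated sh-PHLPP1 replicate 2. A count of 0 allows up to 3 counts, which is 0.0999 to 0.222 CPM by library. Thus several Rabs of epithelial, neuronal and pigment cells were not detected at this depth, and Rab38, the close relative of Rab32, was among them.

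Per kilobase of exon, the scale on which genes can be compared, the most abundant members marked the endosomal route and the ER to Golgi step. In OxLDL libraries labelled sh-PHLPP1, Rab7 (late endosome to lysosome fusion) had 133 ± 4.54 CPM per kb, Rab1a (ER to Golgi) 125 ± 8.07, Rab2a (Golgi and lysosome delivery) 120 ± 18.9 and Rab5c (early endosome fusion) 116 ± 1.60 (SD, n = 3). Each of these 4 levels differed from the next in order by less than the sum of their SDs, while Rab7 was above Rab5c by more than that sum. In untreated libraries labelled sh-PHLPP1, Rab7 led with 113 ± 14.0 and Rab5c followed with 102 ± 9.06, again within their spread. In OxLDL sh-Luc libraries Rab5c had 132 ± 2.40 and Rab7 130 ± 7.16 CPM per kb. In untreated sh-Luc libraries Rab5c led with 136 ± 5.51, ahead of Rab1b with 115 ± 9.17, Rab7 with 107 ± 5.57 and Rab31 with 102 ± 2.33. Rab1a and Rab2a were thus level with Rab7 in OxLDL libraries labelled sh-PHLPP1, and Rab1b and Rab31 were level with Rab7 in untreated sh-Luc libraries. Summed over the family, the level was 3976 ± 138 CPM in OxLDL and 3332 ± 301 CPM in untreated libraries labelled sh-PHLPP1, and 3482 ± 71.5 CPM in OxLDL and 3332 ± 72.1 CPM in untreated sh-Luc libraries. As a share of all counts, which uses no TMM factor, it was 0.321 to 0.344% and 0.335 to 0.404% in OxLDL and untreated libraries labelled sh-PHLPP1, so the direction of the family total turned with the scaling.

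**Figure D1:**
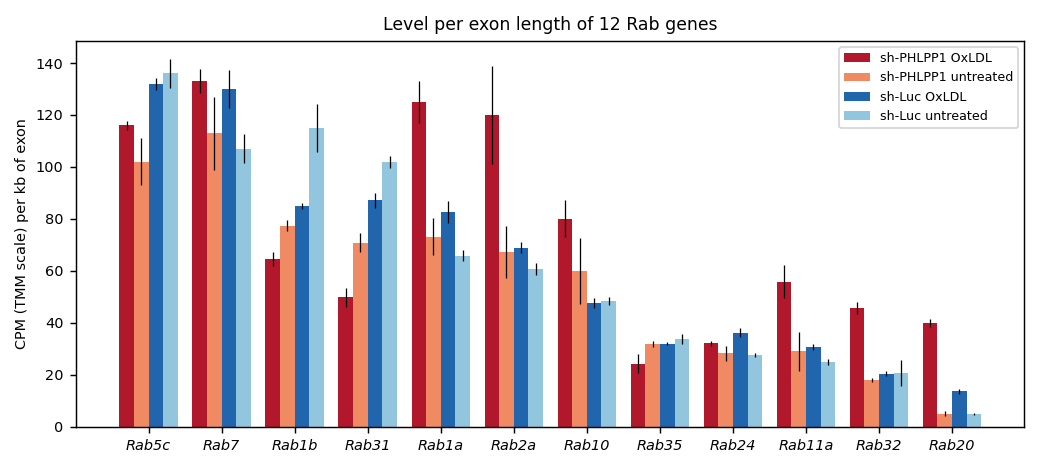
Level of 12 Rab genes in CPM on the TMM scale per kilobase of exon; bars are group means, whiskers the SD over 3 libraries, and the 4 groups are the libraries labelled sh-PHLPP1 and sh-Luc with and without OxLDL. Rab5c and Rab7 are high in all 4 groups, and Rab1a and Rab2a stand at 125 and 120 in OxLDL libraries labelled sh-PHLPP1.

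After OxLDL, the line labelled sh-PHLPP1 had 25 of 44 tested Rab genes called, 15 higher and 10 lower (edgeR quasi-likelihood, adjusted p under 0.05). Of all 13121 tested genes, 54.6% were called in that comparison, 26.2% higher and 28.4% lower, so 56.8% of members is near the background. Rab33a and Rab30, among the 15 higher, passed the filter on low counts only through the OxLDL libraries labelled sh-PHLPP1. The sh-Luc line had 4 of 44 called after OxLDL, 3 higher and 1 lower, against a background of 9.47% of all genes (6.38% higher and 3.09% lower). In both comparisons the median change of members was small, 0.13 (all genes -0.03) in the line labelled sh-PHLPP1 and 0.11 (all genes 0.00) in sh-Luc. Rab20, Rab43 and Rab1b were the 3 members called in both lines. In these bulk libraries, fewer cells expressing a gene and less RNA of it per cell cannot be told apart. The split depends on scaling: when counts were scaled by library size alone, the median of all genes moved to -0.46 in the line labelled sh-PHLPP1, and its calls became 8 higher and 18 lower. Changes below about that size are therefore relative to the bulk of genes, and Rab10, Rab22a, Rab33b and Rab5a, all called higher, came out at -0.01, -0.15, -0.03 and -0.08 on that scale. Scaled that way the sh-Luc calls became 1 higher and 1 lower. In the same line labelled sh-PHLPP1, the calls of 20 of the 25 members held whichever single library was left out. Rab13 lost its call without untreated sh-PHLPP1 replicate 1 (0.55, adjusted p = 0.0626) or OxLDL replicate 3 (0.45, adjusted p = 0.162), Rab10 without OxLDL replicate 3 (0.34, adjusted p = 0.0818), and Rab40c without untreated replicate 3 (-0.31, adjusted p = 0.0545) or OxLDL replicate 3 (-0.24, adjusted p = 0.0656; edgeR throughout). Rab5a and Rab1b lost theirs without several libraries named beside their values below.

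**Figure D2:**
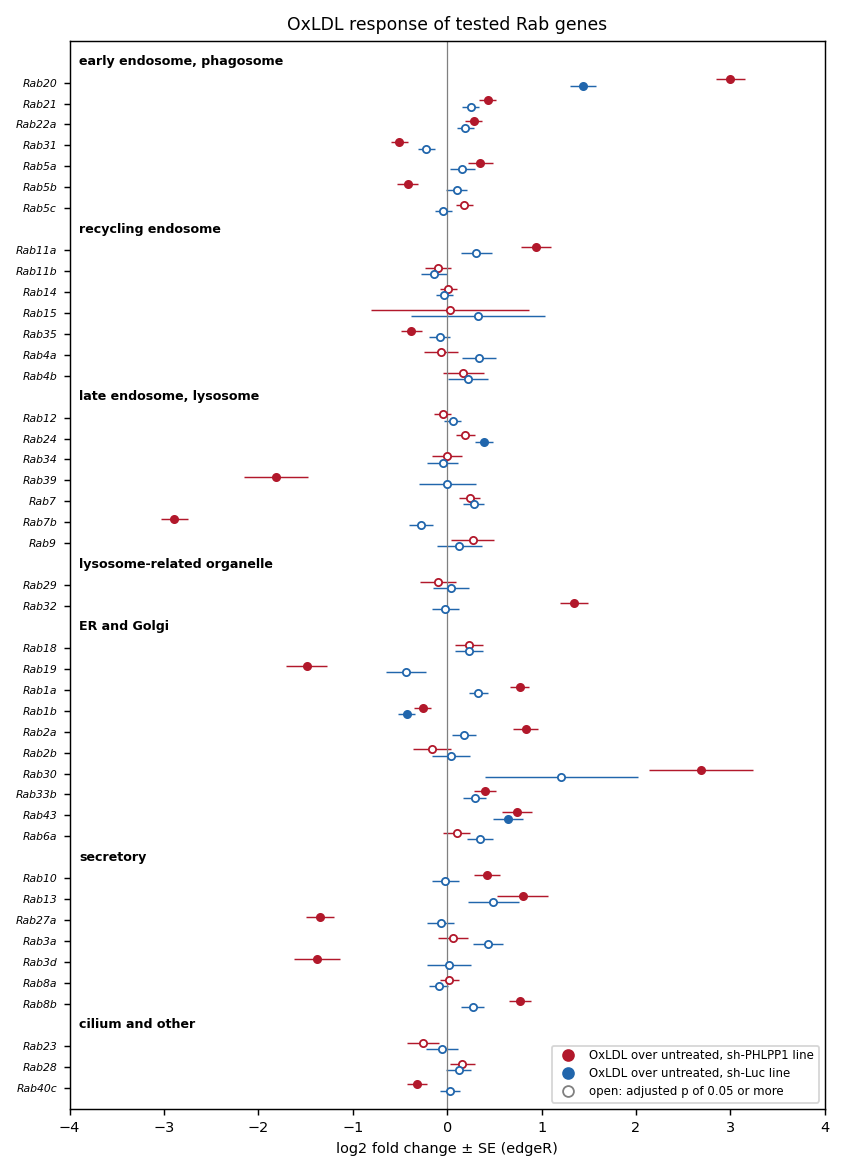
Log2 fold change ± SE of OxLDL over untreated for tested Rab genes other than Rab33a, by compartment, in libraries labelled sh-PHLPP1 (red) and sh-Luc (blue); filled points passed adjusted p under 0.05. Rab20 lies at 3.00 and 1.44, Rab7b at -2.89 and -0.28.

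Early endosome and phagosome members held the largest rise among Rab genes with more than a few counts. Rab20, a GTPase of phagosomes and of the endocytic route in macrophages, had 53.9, 54.7 and 58.1 CPM in OxLDL libraries labelled sh-PHLPP1 and 5.45, 7.19 and 8.16 CPM in the untreated ones. In sh-Luc libraries it had 18.5, 20.5 and 18.2 CPM with OxLDL and 6.83, 6.56 and 7.67 CPM without. Neither pair of groups overlapped, and the untreated libraries of the 2 lines overlapped. The OxLDL effect was 3.00 ± 0.15 on the log2 scale in the line labelled sh-PHLPP1 (7.99-fold higher, adjusted p = 1.99e-08) and 1.44 ± 0.14 in sh-Luc (2.72-fold, adjusted p = 6.2e-05), and both calls held under every alternative run. Rab21, which acts in endocytosis and integrin traffic, averaged 142 ± 3.70 CPM with OxLDL and 105 ± 6.55 CPM without in libraries labelled sh-PHLPP1 (0.43 ± 0.09), and 131 ± 3.59 and 111 ± 3.43 CPM in sh-Luc libraries (0.25 ± 0.09, not called). With library size alone the first value was 0.00. Rab31, a Rab5 relative of the trans-Golgi to endosome route, fell to 203, 191 and 175 CPM with OxLDL, against 257, 285 and 269 CPM untreated, in libraries labelled sh-PHLPP1 (-0.51 ± 0.09, adjusted p = 0.000726), and had 328, 323 and 345 CPM with OxLDL and 398, 381 and 385 CPM untreated in sh-Luc libraries (-0.22 ± 0.09, not called). Rab5b, a Rab5 isoform, had 57.9, 46.5 and 44.2 CPM with OxLDL and 62.4, 69.0 and 67.0 CPM untreated in libraries labelled sh-PHLPP1 (-0.42 ± 0.11, adjusted p = 0.0078). Rab5a, the isoform that with EEA1 drives fusion of early endosomes, rose by 0.35 ± 0.13 (adjusted p = 0.0421), but without untreated sh-PHLPP1 replicate 1 or 3 or any OxLDL replicate the call was lost (0.23 to 0.36, adjusted p 0.078 to 0.122). Of 7 tested members of this compartment, 4 were higher and 2 lower in the line labelled sh-PHLPP1 (85.7%, against 54.6% of all genes), and 1 higher and 2 lower when scaled by library size alone.

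Promoter stretches are shown for Rab20, for the 2 other early endosome members whose windows carried the E-box letters CACGTG, which basic helix-loop-helix factors read, and for Rab32, which rose too and has none. RefSeq windows of GRCm38.p6 run 250 bases before to 50 after each start, and 48 of 59 members had 60 windows between them. Each line gives the 250 bases before the RefSeq start, 5′ to 3′, with the E-box in capitals, or the longer palindrome known as CLEAR (the E-box with GT before it and AC after it) where it is present. They lie at chr8:11478641-11478890 (minus strand), chr10:115315592-115315841 (minus strand), chr17:53478984-53479233 (plus strand) and chr10:10558208-10558457 (minus strand). GENCODE places the starts of Rab20, Rab21 and Rab32 a little upstream of RefSeq's, within the stretches printed. By the GENCODE start, the E-box of Rab20 lies after the start and that of Rab21 still before it.
Rab20: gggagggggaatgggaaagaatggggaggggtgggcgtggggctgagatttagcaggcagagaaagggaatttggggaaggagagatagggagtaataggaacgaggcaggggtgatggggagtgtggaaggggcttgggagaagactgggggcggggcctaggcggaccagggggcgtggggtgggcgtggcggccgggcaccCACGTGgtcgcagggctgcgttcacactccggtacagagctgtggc
Rab21: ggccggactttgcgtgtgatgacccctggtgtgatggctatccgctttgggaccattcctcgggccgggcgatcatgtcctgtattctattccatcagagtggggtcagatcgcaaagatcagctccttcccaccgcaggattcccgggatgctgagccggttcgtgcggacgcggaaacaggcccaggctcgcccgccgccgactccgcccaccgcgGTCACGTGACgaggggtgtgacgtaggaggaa
Rab5a: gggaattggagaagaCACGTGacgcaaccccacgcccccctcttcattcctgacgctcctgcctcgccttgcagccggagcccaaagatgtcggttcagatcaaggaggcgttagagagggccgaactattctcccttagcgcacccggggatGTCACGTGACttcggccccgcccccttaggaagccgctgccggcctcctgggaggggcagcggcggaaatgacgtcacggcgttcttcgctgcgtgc
Rab32: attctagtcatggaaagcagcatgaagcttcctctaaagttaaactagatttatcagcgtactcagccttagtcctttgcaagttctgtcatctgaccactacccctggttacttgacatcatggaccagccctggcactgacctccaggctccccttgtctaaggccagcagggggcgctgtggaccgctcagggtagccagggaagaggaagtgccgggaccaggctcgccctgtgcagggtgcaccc
The E-box began 46 bases before the start in Rab20 and 30 bases before it in Rab21, and Rab5a held 2, at 235 and 95 bases before the start. Of 60 member windows 6 held CACGTG (10%, on either strand, against 7.15% of 32851 windows of the same length): those of Rab20, Rab21, Rab5a, Rab23, Rab24 and 1 window of Rab27a. Those members moved in different ways: Rab20, Rab21 and Rab5a were called higher after OxLDL in the line labelled sh-PHLPP1, Rab27a lower, and Rab23 and Rab24 were not called. The longer CLEAR letters, searched only after the windows had been seen, were in 3 windows (5%, against 0.326% of all): Rab21, Rab5a and Rab24. TGACNNNGC, the core of the antioxidant response element, was in 10 of 60 (16.7%, against 12.4%), TGANTCA, the AP-1 site, in 3 (5%, against 7.81%) and the NF-kB consensus in 3 (5%, against 8.46%). Rab7b, Rab2a and Rab30 had no window.

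Among late endosome and lysosome members the largest change was a fall. Rab7b, which controls traffic between endosomes and the trans-Golgi and in macrophages limits Toll-like receptor signalling, had 8.31, 7.40 and 6.22 CPM in OxLDL libraries labelled sh-PHLPP1 and 51.9, 57.3 and 53.5 CPM in the untreated ones. In sh-Luc libraries it had 43.4, 34.8 and 38.4 CPM with OxLDL and 51.9, 41.0 and 48.3 CPM without. The first pair lay far apart, and the sh-Luc groups overlapped. The log2 change was -2.89 ± 0.14 (7.40-fold lower, adjusted p = 2.23e-08) in the line labelled sh-PHLPP1 and -0.28 ± 0.13 (adjusted p = 0.204) in sh-Luc. Rab39, which acts in phagosome maturation and autophagy, had 1.01, 1.01 and 0.518 CPM with OxLDL and 2.11, 3.46 and 3.41 CPM untreated in libraries labelled sh-PHLPP1 (-1.81 ± 0.34, adjusted p = 0.000718), and 2.46, 1.84 and 2.12 CPM with OxLDL and 2.44, 1.41 and 2.57 CPM untreated in sh-Luc libraries. Rab7 itself had 347 ± 11.8 and 294 ± 36.7 CPM with and without OxLDL in libraries labelled sh-PHLPP1 (0.24 ± 0.11, adjusted p = 0.0788), and 339 ± 18.7 and 280 ± 14.5 CPM in sh-Luc libraries (0.28 ± 0.11, adjusted p = 0.136). Rab24, an atypical member linked to autophagy, was higher after OxLDL in sh-Luc, with 73.0 ± 3.65 and 55.7 ± 1.56 CPM (0.39 ± 0.10, adjusted p = 0.0273), a call lost on leaving out any 1 of the 6 libraries (0.35 to 0.43, adjusted p 0.0548 to 0.115). It shares 1258 exon bases with Prelid1 on the other strand, and the strand setting of the counting is not given in the sources used here, so reads of these genes cannot be told apart. Rab9, Rab34 and Rab12 were not called in any comparison.

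Of the 2 tested members of lysosome-related organelles, Rab32, which with Rab38 builds melanosomes and in macrophages acts in defence against intracellular bacteria, rose. It had 106, 102 and 113 CPM in OxLDL libraries labelled sh-PHLPP1 and 41.2, 44.4 and 40.9 CPM in the untreated ones. In sh-Luc libraries it had 46.5, 47.1 and 50 CPM with OxLDL and 40.6, 62.5 and 42.5 CPM without, the 62.5 being the replicate that stands apart. The OxLDL libraries labelled sh-PHLPP1 were above every other library (1.34 ± 0.15, 2.53-fold, adjusted p = 1.39e-05), whereas the sh-Luc groups overlapped (-0.02 ± 0.14, adjusted p = 0.943). Rab29 was not called in any comparison.

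Of the ER and Golgi members, 8 of 11 tested (72.7%, against 54.6% of all genes) were called after OxLDL in the line labelled sh-PHLPP1, 6 higher and 2 lower, with a median of 0.40. Scaled by library size alone the split was 4 higher and 3 lower, with a median of -0.03. Rab1a, the ER to Golgi GTPase, had 458, 455 and 510 CPM with OxLDL and 252, 306 and 275 CPM untreated in libraries labelled sh-PHLPP1 (0.77 ± 0.10, adjusted p = 6.85e-05), and 329, 297 and 317 CPM with OxLDL and 258, 243 and 250 CPM untreated in sh-Luc libraries (0.33 ± 0.10, adjusted p = 0.0657). Its paralogue Rab1b went the other way: it had 147, 153 and 140 CPM with OxLDL and 172, 174 and 182 CPM untreated in libraries labelled sh-PHLPP1 (-0.26 ± 0.09, adjusted p = 0.0287), and 195, 194 and 190 CPM with OxLDL and 245, 285 and 254 CPM untreated in sh-Luc libraries (-0.43 ± 0.09, adjusted p = 0.011). The first Rab1b call was lost without untreated sh-PHLPP1 replicate 2 (adjusted p = 0.052) or 3 (0.0761) or OxLDL sh-PHLPP1 replicate 1 (0.0579) or 3 (0.0576), and the second without OxLDL sh-Luc replicate 3 (0.0588), the value lying between -0.28 and -0.24 in the first case and at -0.42 in the second. Rab2a had 231, 233 and 302 CPM with OxLDL and 120, 162 and 148 CPM untreated in libraries labelled sh-PHLPP1 (0.83 ± 0.13, adjusted p = 0.000244), and 152, 144 and 145 CPM with OxLDL and 129, 135 and 125 CPM untreated in sh-Luc libraries.

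Several Golgi members had few counts. Rab33a, a relative of the ATG16L1-binding Rab33b, had 16, 17 and 16 counts in OxLDL libraries labelled sh-PHLPP1 and 0, 2 and 0 in the untreated ones, while sh-Luc libraries had 1, 2 and 0 counts with OxLDL and 0, 2 and 1 without. The ratio of summed counts, scaled for depth, was 41.8 between OxLDL and untreated libraries labelled sh-PHLPP1 (95% exact interval by counting 11.0 to 355.0). The fitted log2 change of 5.12 ± 0.69 depends on the prior count. Rab33a and Rab30 passed the filter on low counts only through the OxLDL libraries labelled sh-PHLPP1, so the filter favoured a higher value there. Both count among the ER and Golgi members called higher in the comparisons of that group, and Rab33a also in the interaction. Rab30, a Golgi GTPase, had 1.28, 1.48 and 2.15 CPM with OxLDL and 0.183, 0.200 and 0.357 CPM untreated in libraries labelled sh-PHLPP1 (2.69 ± 0.55, adjusted p = 0.00138), and 0.263, 0.368 and 0 CPM with OxLDL and 0.0443, 0.201 and 0.0421 CPM untreated in sh-Luc libraries (1.21 ± 0.81, adjusted p = 0.378). Rab19, a Golgi-linked member, fell to 1.82, 1.60 and 2.15 CPM with OxLDL, against 3.76, 5.99 and 5.79 CPM untreated, in libraries labelled sh-PHLPP1 (-1.49 ± 0.22, adjusted p = 0.000147). It had 2.63, 2.90 and 3.30 CPM with OxLDL and 4.17, 3.58 and 4.17 CPM untreated in sh-Luc libraries (-0.44 ± 0.21, adjusted p = 0.213). Rab43, of ER to Golgi transport, had 66.9, 57.6 and 59.7 CPM with OxLDL and 27.4, 40.1 and 43.1 CPM untreated in libraries labelled sh-PHLPP1 (0.74 ± 0.16), and 31.5, 33.9 and 29.6 CPM with OxLDL and 20.1, 18.2 and 22.7 CPM untreated in sh-Luc libraries (0.64 ± 0.16, adjusted p = 0.024). The sh-Luc value missed the threshold on leaving out any 1 of the 6 libraries other than untreated replicate 3 (0.57 to 0.69, adjusted p 0.0528 to 0.0988). Both calls were lost with library size alone, at 0.31 (adjusted p = 0.139) in the line labelled sh-PHLPP1 and 0.59 (adjusted p = 0.054) in sh-Luc.

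Of the secretory members, 3 of 7 tested rose and 2 fell in the line labelled sh-PHLPP1 (71.4%, against 54.6% of all genes). With library size alone 1 was higher and 3 lower there. In sh-Luc 0 of 7 were called, against 9.47% of all genes. Rab27a, which docks secretory lysosomes and exosome-bearing endosomes at the plasma membrane, had 2.91, 3.61 and 2.66 CPM with OxLDL and 8.61, 7.99 and 6.97 CPM untreated in libraries labelled sh-PHLPP1 (-1.35 ± 0.15, adjusted p = 1.93e-05), and 9.09, 9.12 and 8.60 CPM with OxLDL and 9.27, 9.77 and 9.02 CPM untreated in sh-Luc libraries (-0.07 ± 0.14). Rab3d, of regulated granule exocytosis, had 14.5, 12.7 and 11.6 CPM with OxLDL and 19.0, 40.1 and 42.4 CPM untreated in libraries labelled sh-PHLPP1 (-1.38 ± 0.24, adjusted p = 0.000437), with the untreated replicate that stands apart lowest of its group. In sh-Luc libraries Rab3d had 19.4, 19.2 and 17.9 CPM with OxLDL and 19.1, 17.0 and 19.7 CPM untreated. Rab8b, a paralogue of the exocytic Rab8a, rose to 168, 153 and 153 CPM with OxLDL, against 86.2, 109 and 82.9 CPM untreated, in libraries labelled sh-PHLPP1 (0.77 ± 0.12, adjusted p = 0.000288). Rab8a had 95.5 ± 10.4 CPM with OxLDL and 94.3 ± 4.07 CPM untreated in that line (0.02 ± 0.10, not called). Of the recycling members, 1 of 7 rose and 1 fell (28.6%, against 54.6% of all genes), and with library size alone 1 was higher and 4 lower. Rab11a, the GTPase of the recycling endosome, had 157, 155 and 189 CPM with OxLDL and 61.3, 101 and 98.9 CPM untreated in libraries labelled sh-PHLPP1 (0.94 ± 0.16, adjusted p = 0.000498), and Rab35, of fast recycling, had 68.5 ± 10.4 and 89.3 ± 3.17 CPM (-0.38 ± 0.11, adjusted p = 0.0126).

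**Figure D3:**
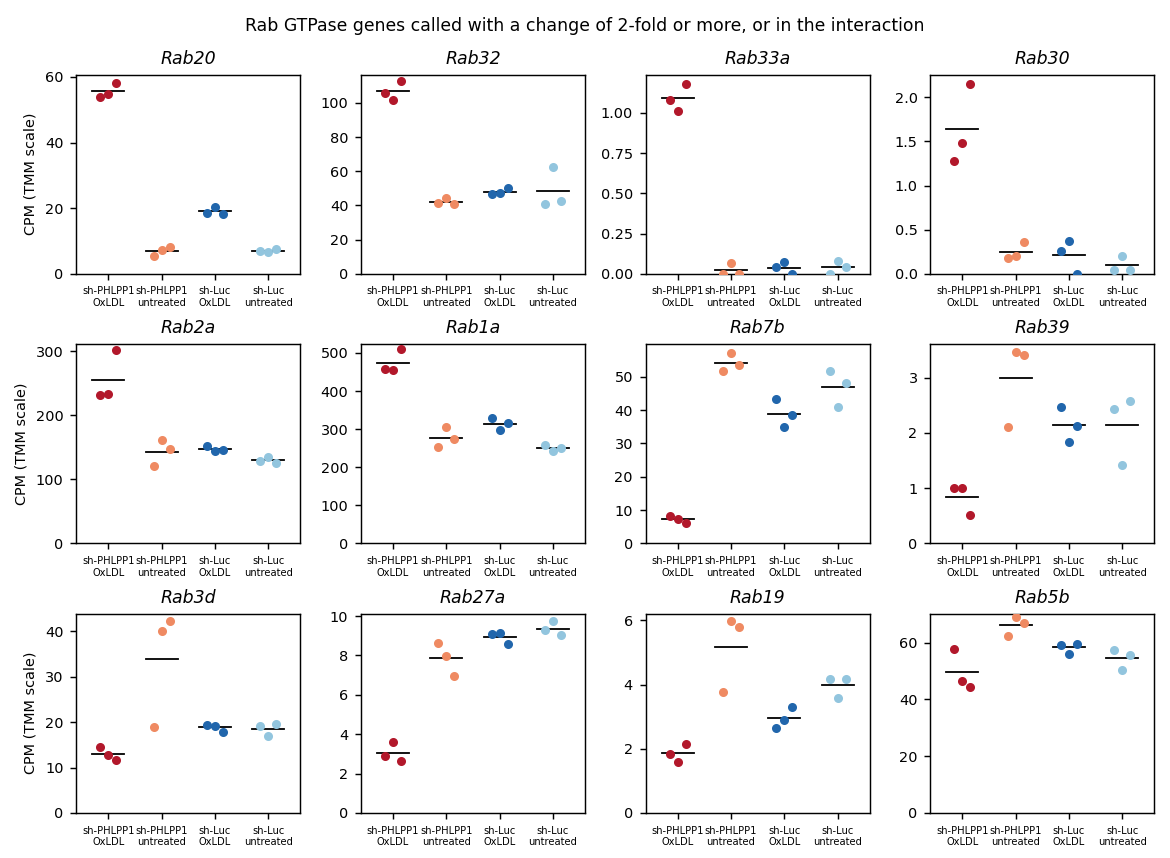
CPM on the TMM scale in each library (points) with the group mean (line) for 12 Rab genes, in libraries labelled sh-PHLPP1 with and without OxLDL and sh-Luc with and without OxLDL. The OxLDL libraries labelled sh-PHLPP1 are highest in Rab20 (53.9 to 58.1) and lowest in Rab7b (6.22 to 8.31).

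The lines themselves differed without OxLDL in 8 of 44 tested members, 5 higher and 3 lower in libraries labelled sh-PHLPP1, against 27.0% of all genes (14.9% higher and 12.2% lower). Rab1b (-0.57 ± 0.09, adjusted p = 0.00163), Rab31 (-0.52 ± 0.09, adjusted p = 0.00308) and Rab5c (-0.41 ± 0.09, adjusted p = 0.00885) were lower. Rab43 (0.86 ± 0.16, adjusted p = 0.00322), Rab3d (0.86 ± 0.23, adjusted p = 0.0184), Rab2b (0.59 ± 0.20, adjusted p = 0.0446), Rab18 (0.45 ± 0.15, adjusted p = 0.0406) and Rab40c (0.35 ± 0.11, adjusted p = 0.0309) were higher. For Rab3d the groups overlapped: untreated replicate 1 labelled sh-PHLPP1, at 19.0 CPM, lay among the sh-Luc libraries. The groups overlapped for Rab18 too, at 84.4 CPM in that library and up to 86.1 CPM in sh-Luc. The count turns on single libraries: 23 were called without untreated sh-PHLPP1 replicate 1, 4 without its replicate 2 or its replicate 3, and 5 without untreated sh-Luc replicate 1 or 2, and 22 without both libraries that stand apart. Without untreated sh-PHLPP1 replicate 2, Rab2b (0.43), Rab3d (0.72) and Rab18 (0.31) lost their calls, as did Rab40c (0.37), and the same 4 did so without its replicate 3. Rab3d (0.80), Rab2b (0.44), Rab18 (0.41) and Rab40c (0.31) also lost them without untreated sh-Luc replicate 2, Rab2b (0.68), Rab18 (0.47) and Rab40c (0.33) without its replicate 1, and Rab2b (0.64) and Rab18 (0.45) without its replicate 3. The split was 13 higher and 2 lower with scaling by library size alone.

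After OxLDL the lines differed in 22 of 44 members, 15 higher and 7 lower in libraries labelled sh-PHLPP1, against 55.2% of all genes (27.6% higher and 27.6% lower). Scaled by library size alone, 9 were higher and 14 lower. Rab20 (1.54 ± 0.14, adjusted p = 5.13e-06), Rab32 (1.16 ± 0.15, adjusted p = 5.42e-05) and Rab11a (0.86 ± 0.16, adjusted p = 0.000974) were higher, and Rab7b (-2.41 ± 0.14, adjusted p = 2.38e-07), Rab27a (-1.54 ± 0.15, adjusted p = 1.15e-05) and Rab39 (-1.31 ± 0.34, adjusted p = 0.00663) were lower. Rab31, which was lower without OxLDL, was lower here too (-0.81 ± 0.10, adjusted p = 3.66e-05). Of the ER and Golgi members 7 of 11 were higher and 2 lower (81.8%, against 55.2% of all genes). Rab33a and Rab30, among the 7, passed the filter on low counts only through the OxLDL libraries labelled sh-PHLPP1. With library size alone 5 were higher and 2 lower, and the median went from 0.46 to 0.19. Of the early endosome members 3 of 7 were higher and 1 lower (57.1%), and 1 higher and 3 lower with library size alone. Rab28, a ciliary member, lost its call on leaving out any 1 of the 6 libraries (0.31 to 0.40), Rab22a without OxLDL sh-Luc replicate 3 (0.26), Rab8b without OxLDL sh-Luc replicate 2 (0.37), and Rab5a without OxLDL sh-Luc replicate 2 (0.40) or 3 (0.43). Rab18 lost it without OxLDL sh-Luc replicate 1 (0.45) or 2 (0.38) or OxLDL sh-PHLPP1 replicate 1 (0.39), and Rab19 without OxLDL sh-Luc replicate 2 (-0.67) or 3 (-0.60) or OxLDL sh-PHLPP1 replicate 1 (-0.66) or 2 (-0.56). The OxLDL effects within each line share libraries with this comparison, so they are not independent of it. For Rab33a the ratio of summed counts between the OxLDL libraries labelled sh-PHLPP1 and sh-Luc was 23.9 (95% exact interval by counting 7.70 to 120.0).

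**Figure D4:**
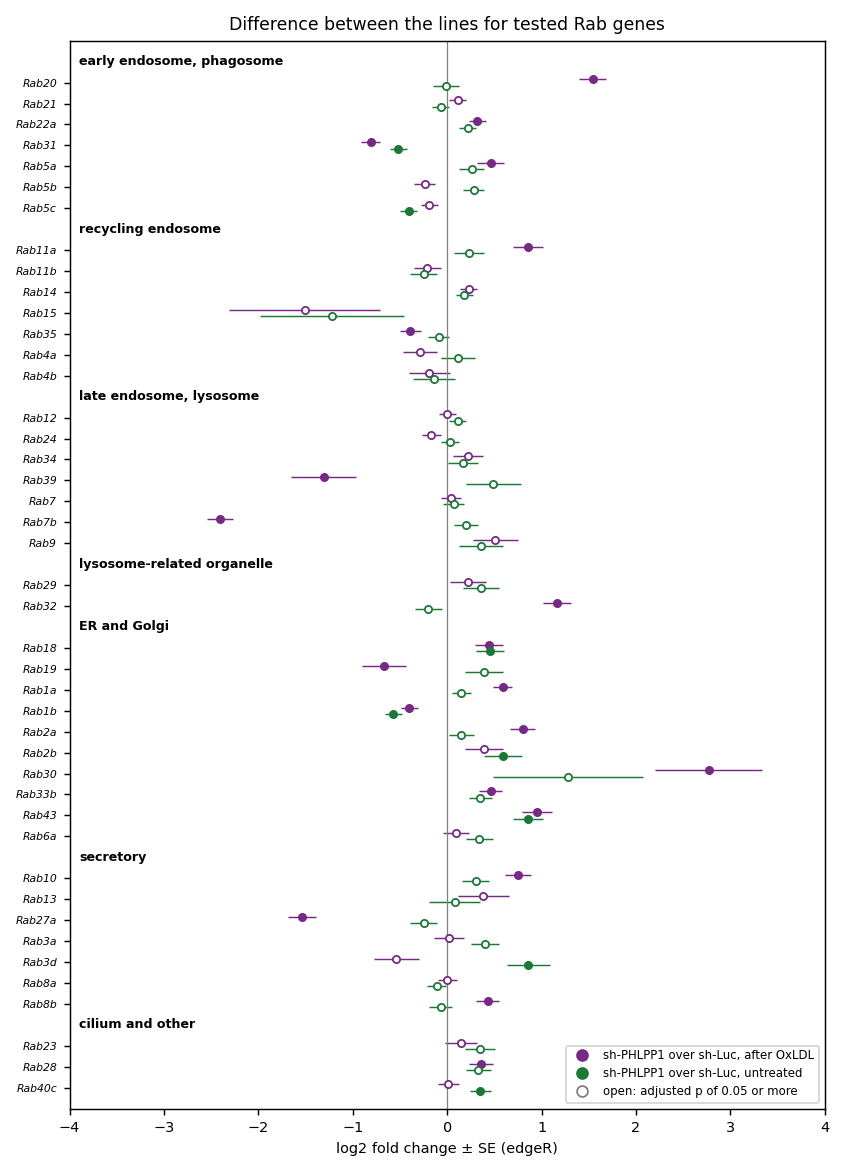
Log2 fold change ± SE of libraries labelled sh-PHLPP1 over sh-Luc for tested Rab genes other than Rab33a, after OxLDL (purple) and untreated (green), by compartment; filled points passed adjusted p under 0.05. Rab7b is at -2.41 after OxLDL and 0.20 untreated, Rab20 at 1.54 and -0.01.

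The OxLDL response itself differed between the lines in 11 of 44 members, 5 higher and 6 lower in the line labelled sh-PHLPP1, against 24.6% of all genes (11.1% higher and 13.6% lower). The difference in log2 response was 1.56 ± 0.20 for Rab20, 1.36 ± 0.20 for Rab32, 5.03 ± 1.55 for Rab33a, 0.65 ± 0.19 for Rab2a and 0.44 ± 0.15 for Rab1a. It was -2.61 ± 0.19 for Rab7b, -1.80 ± 0.45 for Rab39, -1.40 ± 0.33 for Rab3d, -1.29 ± 0.21 for Rab27a, -1.05 ± 0.30 for Rab19 and -0.51 ± 0.16 for Rab5b. Adjusted p-values (edgeR) were 4.33e-06 for Rab7b, 0.000285 for Rab20 and 0.000805 for Rab32, and 0.00129 to 0.0435 for the others. The 6 members whose difference held under every alternative run were Rab20, Rab27a, Rab32, Rab39, Rab3d and Rab7b. Scaled by library size alone, the difference for Rab1a was 0.06 (adjusted p = 0.8) and that of Rab2a 0.25 (adjusted p = 0.274), and Rab1a also missed the threshold with the replicate block (adjusted p = 0.0692). The call of each of the 5 members other than those 6 was lost on leaving out single libraries. Rab33a rests on groups with 0 to 2 counts a library, and it missed the threshold without untreated sh-Luc replicate 2 (4.21) or 3 (5.02), OxLDL sh-Luc replicate 1 (5.00) or 3 (4.66), untreated sh-PHLPP1 replicate 3 (4.54) or OxLDL sh-PHLPP1 replicate 3 (4.97). Rab2a lost its call without untreated sh-Luc replicate 1 (0.64) or OxLDL sh-Luc replicate 1 (0.66), 2 (0.63) or 3 (0.63). Rab19 lost it without OxLDL sh-Luc replicate 2 (-1.06) or 3 (-0.98), untreated sh-PHLPP1 replicate 2 (-0.94) or 3 (-0.98) or OxLDL sh-PHLPP1 replicate 2 (-0.95). Rab5b lost it on leaving out any 1 of the 12 libraries other than untreated sh-Luc replicate 1, untreated sh-PHLPP1 replicate 1 and OxLDL sh-PHLPP1 replicate 1 (-0.54 to -0.44), and Rab1a on leaving out any 1 other than untreated sh-Luc replicate 2 and untreated sh-PHLPP1 replicate 2 (0.37 to 0.47). Rab11a (0.63 ± 0.23, adjusted p = 0.0646) and Rab8b (0.49 ± 0.18, adjusted p = 0.0574) missed the threshold. With library size alone 3 were higher and 14 lower.

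Rab15, a recycling endosome member, turned on 1 library. It had 1.01, 1.66 and 1.55 CPM in OxLDL and 3.85, 0.400 and 0.0793 CPM in untreated libraries labelled sh-PHLPP1, and 5.36, 3.05 and 3.67 CPM in OxLDL and 4.43, 2.86 and 2.36 CPM in untreated sh-Luc libraries. The untreated replicate 1 labelled sh-PHLPP1, which stands apart, was within the sh-Luc range, and the other two replicates were below every sh-Luc library. Between the untreated lines the log2 fold change was -1.22 ± 0.76 (adjusted p = 0.249), and -3.65 without that library (adjusted p = 0.000103). The OxLDL effect in the line labelled sh-PHLPP1 was 0.03 ± 0.84, and 2.46 without it (adjusted p = 0.00291).

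Shares within sets of close paralogues were computed for each library. Rab1a made up 65.9 ± 2.34% of Rab1 transcripts per length in OxLDL and 48.5 ± 2.44% in untreated libraries labelled sh-PHLPP1, and 49.3 ± 1.29% in OxLDL and 36.5 ± 2.48% in untreated sh-Luc libraries (SD, n = 3; shares do not depend on the scaling). Rab11a was 90.9 ± 0.631% of Rab11a and Rab11b in OxLDL and 82.1 ± 6.73% in untreated libraries labelled sh-PHLPP1, and 82.6 ± 0.861% and 77.7 ± 1.45% in sh-Luc libraries with and without OxLDL. Rab8b was 62.0 ± 3.49% of Rab8a and Rab8b in OxLDL and 49.1 ± 3.76% in untreated libraries labelled sh-PHLPP1, and 54.8 ± 1.88% and 48.5 ± 3.59% in sh-Luc libraries. Rab5c made up 80.2 ± 1.07% of the Rab5 set in OxLDL and 77.9 ± 3.22% in untreated libraries labelled sh-PHLPP1, and 83.5 ± 1.01% and 85.1 ± 0.829% in sh-Luc libraries. Group means of Rab4a ran from 59.6 to 63.5% of its set, and those of Rab2a from 96.2 to 98.0%. Rab4b shares 1280 of its 1970 exon bases with Gm21983 on the same strand, so its share may be too low. OxLDL and untreated libraries overlapped in the share of Rab5c in both lines, and met at 52.7% for Rab8b in sh-Luc. No test was run on the shares. Reads that fit more than 1 paralogue may have been left out of the counting or split.

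**Figure D5:**
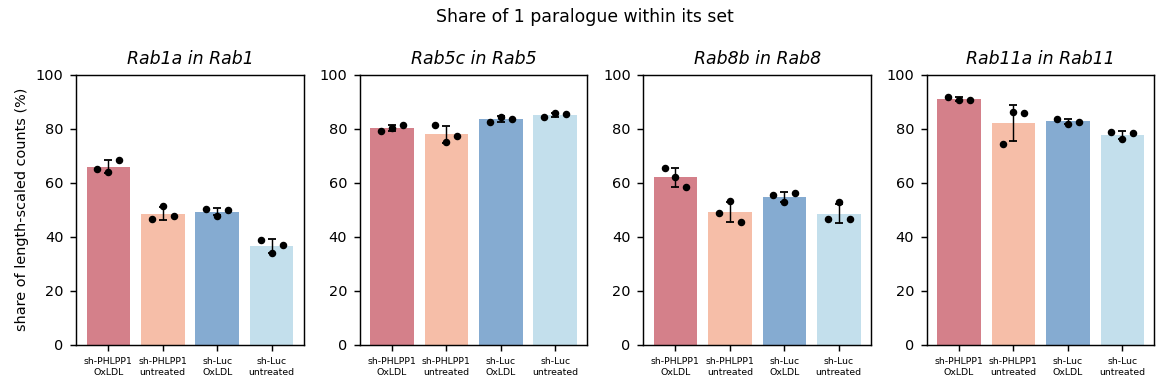
Share of 1 paralogue in the length-scaled counts of its set, in percent; bars are group means, whiskers the SD, and points the 3 libraries. The share of Rab1a is highest in OxLDL libraries labelled sh-PHLPP1 (65.9%) and lowest in untreated sh-Luc libraries (36.5%).

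Genes that set the state of Rabs were also counted, from lists of textbook members. Of 34 exchange factors 2 were higher and 16 lower after OxLDL in the line labelled sh-PHLPP1 (52.9% called, against 54.6% of all genes; median -0.28), and 1 higher and 2 lower in sh-Luc (8.82%, against 9.47%). Scaled by library size alone, 2 were higher and 25 lower in the line labelled sh-PHLPP1, with a median of -0.71. Rabgef1, a Rab5 exchange factor also called Rabex-5, rose to 146 ± 5.91 CPM in OxLDL libraries labelled sh-PHLPP1, against 31.0 ± 2.87 CPM in the untreated ones (2.23 ± 0.10, adjusted p = 9.18e-09), and to 56.0 ± 1.21 CPM, against 30.6 ± 1.43 CPM, in sh-Luc (0.87 ± 0.10, adjusted p = 0.000136). Rin2, another Rab5 exchange factor, fell to 13.6 ± 0.426 CPM, against 56.7 ± 5.45 CPM, in the same line (-2.06 ± 0.19, adjusted p = 4.08e-06), and Sh3bp5l, an exchange factor for Rab11, to 14.1 ± 2.38, against 39.0 ± 1.96 CPM (-1.46 ± 0.14, adjusted p = 3.94e-06). Of 33 tested GAPs 2 were higher and 14 lower in the line labelled sh-PHLPP1 (48.5%, against 54.6% of all genes). Their median was -0.29. In sh-Luc 3 were higher and 1 lower (12.1%, against 9.47%). Scaled by library size alone, 1 GAP was higher and 25 lower in the line labelled sh-PHLPP1. Tbc1d9, a protein with the TBC domain of Rab GAPs, rose to 42.5 ± 6.01 CPM, against 3.88 ± 1.48 CPM, in cells labelled sh-PHLPP1 (3.47 ± 0.23, adjusted p = 2.33e-07) and to 11.4 ± 1.34 CPM, against 1.59 ± 0.208 CPM, in sh-Luc (2.83 ± 0.25, adjusted p = 3.15e-05). Tbc1d14 fell in the line labelled sh-PHLPP1 by 1.68 on the log2 scale (17.9 ± 2.78 against 57.7 ± 4.43 CPM, adjusted p = 2.04e-06). In sh-Luc it fell by 0.58 (44.6 ± 4.65 against 66.5 ± 9.16 CPM, adjusted p = 0.0216, edgeR), a call lost on leaving out single libraries.

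Of 33 tested effectors 8 were higher and 11 lower after OxLDL in the line labelled sh-PHLPP1, and 9 higher and 1 lower in sh-Luc. That was 57.6%, against 54.6% of all genes, and 30.3%, against 9.47%. Scaled by library size alone, 5 were higher and 19 lower in the line labelled sh-PHLPP1, and 6 higher and 1 lower in sh-Luc. Rab11fip1, which binds Rab11, had 138 ± 14.3 CPM with OxLDL and 28.5 ± 1.29 CPM without in libraries labelled sh-PHLPP1 (2.27 ± 0.12, adjusted p = 3.3e-08). Micall2, an effector of Rab8 and Rab13, had 103 ± 16.4 and 18.0 ± 8.47 CPM (2.51 ± 0.29, adjusted p = 2.27e-05). Plekhm1, a Rab7 effector that joins late endosomes to lysosomes, had 74.6 ± 8.91 and 177 ± 44.6 CPM (-1.25 ± 0.16, adjusted p = 4.4e-05). In sh-Luc libraries with and without OxLDL, Rab11fip1 had 39.0 ± 2.74 and 27.0 ± 2.90 CPM and Micall2 58.2 ± 2.19 and 24.3 ± 1.23 CPM. Plekhm1 had 169 ± 2.14 and 182 ± 13.6 CPM there. Eea1, the Rab5 effector that tethers early endosomes, rose in sh-Luc, with 131 ± 23.2 CPM with OxLDL and 76.6 ± 3.34 CPM without (0.77 ± 0.14, adjusted p = 0.00576). In libraries labelled sh-PHLPP1 it had 195 ± 19.5 and 118 ± 16.1 CPM with and without OxLDL. Of the 8 genes of the cycle's core machinery, 4 were higher and 1 lower in the line labelled sh-PHLPP1 (62.5%, against 54.6% of all genes). In sh-Luc 0 were called, against 9.47% of all genes. Scaled by library size alone, 0 were higher and 3 lower in the line labelled sh-PHLPP1. Rabggta, a subunit of the prenyl transferase, rose by 0.61 ± 0.11 in that line (65.1 ± 2.31 and 42.8 ± 3.90 CPM with and without OxLDL). Chml, an escort protein for prenylation, fell there by 2.30 ± 0.43 on the log2 scale. It had 0.799 ± 0.591 CPM with OxLDL and 4.07 ± 0.741 CPM without, so the first level is low, with an SD not far below the mean. With library size alone Rabggta was at 0.18 and was not called. The difference in response between the lines was called for 11 exchange factors (1 higher, 10 lower), 12 GAPs (0 higher, 12 lower), 11 effectors (2 higher, 9 lower) and 1 core gene, Chml. These were 32.4%, 36.4%, 33.3% and 12.5% of those tested, against 24.6% of all genes (11.1% higher and 13.6% lower). The lower calls numbered 23, 23, 19 and 1 in the same order with library size alone. The difference in log2 response was 1.36 ± 0.14 for Rabgef1, 1.74 ± 0.16 for Rab11fip1, -2.07 ± 0.36 for Sgsm2, -1.58 ± 0.28 for Dennd3 and -1.14 ± 0.22 for Plekhm1. Chml missed the threshold without untreated sh-Luc replicate 1 (-1.86), OxLDL sh-Luc replicate 1 (-1.89) or 2 (-1.91), or untreated sh-PHLPP1 replicate 2 (-1.83).

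The authors' deposited tables cover 3 of these comparisons. In the authors' deposited table for OxLDL in sh-Luc 11 members passed adjusted p under 0.05 (9 higher, 2 lower), which included the 4 called here; 25.8% of all its rows passed. In the authors' deposited table for the lines after OxLDL 27 passed (17 higher, 10 lower), which included 21 of the 22 called here (65.5% of all rows passed), and in the authors' deposited table for the untreated lines 5 passed (2 higher, 3 lower), all 5 among the 8 called here (20.4% of all rows passed). Some members overlap another gene: Rab6a shares 708 exon bases with Mrpl48, Rab2b 195 with Tox4, Rab10 143 with Rab10os and Rab3a 29 with Mpv17l2, each on the opposite strand, and their counts are uncertain for that reason. On the same strand Rab4b shares 1280 with Gm21983 and Rab27a 149 with Gm27186, and reads there may have been left out whatever the strand setting.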

How the data were processed

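The authors deposited whole-number read counts for 39179 genes in 12 libraries, and all 12 columns entered the analysis. The submitters' processing notes name the build GRCm38 and the tools HTSeq, FastQC, DESeq2 and Trimmomatic. Neither the aligner, nor the annotation release, nor a strand setting is given in the sources used here. The authors' deposited tables hold log2 fold changes and adjusted p-values of 3 comparisons, which served only to compare calls.

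Counts were tested with edgeR 4.0.16 (R 4.3.3): TMM scaling, filterByExpr, 4 group means, the quasi-likelihood test and Benjamini-Hochberg adjustment over 13121 genes, called at adjusted p under 0.05. The spread was pooled over all 12 libraries. SE is the size of the fitted log2 change divided by the root of its F statistic. CPM per kb used exon lengths of GENCODE M21. Each library's values are given for members called with an absolute log2 fold change of at least 1 or in the interaction, and further members were printed after their values were seen; from each pathway list the 3 called genes of smallest p per comparison could be named, and some genes are not reported here. On counts simulated for OxLDL in sh-Luc, the fit recovered 61% of 200 genes changed 2-fold among 13121. It recovered 3% of 200 changed 1.5-fold and 88.5% of 200 changed 4-fold. A member not called in sh-Luc may therefore still have changed, even by 2-fold or more, since genes of each simulated size were missed. The simulation changed 200 genes at a time, fewer than the 1242 called for OxLDL in sh-Luc, so its shares need not hold here. Alternatives were other scalings, no filter, DESeq2 1.42.0, a replicate block, only the groups compared, and leaving libraries out. Limits and intervals by counting cover counting error only. The members and lists were chosen with earlier results of these data known.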

Additional observations from a re-analysis of the deposited data

Results flagged for a closer look

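The OxLDL response differed between the lines, by the interaction term of the edgeR fit, for 11 of 44 tested Rab genes. That was 25.0%, against 24.6% of all genes. As the response in the line labelled sh-PHLPP1 minus that in sh-Luc, on the log2 scale, it was 1.56 for Rab20, 1.36 for Rab32, 5.03 for Rab33a, 0.65 for Rab2a and 0.44 for Rab1a. It was -2.61 for Rab7b, -1.80 for Rab39, -1.40 for Rab3d, -1.29 for Rab27a, -1.05 for Rab19 and -0.51 for Rab5b.
Of these, Rab20, Rab27a, Rab32, Rab39, Rab3d and Rab7b held their call under every alternative run. The value for Rab33a (SE 1.55) rests on groups with 0 to 2 counts a library. Rab33a passed the filter on low counts only through the OxLDL libraries labelled sh-PHLPP1. Its call was lost in 6 of the 12 fits that left out 1 library.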

How the results depend on the processing

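Of the calls on members, Rab20 for OxLDL in sh-Luc, 15 of 25 for the OxLDL response of the line labelled sh-PHLPP1, Rab1b and Rab31 between the untreated lines, 15 of 22 between the lines after OxLDL and 6 of 11 for the interaction were kept under every alternative run. Members called numbered 4, 25, 8, 22 and 11 in these comparisons, in the order just given. For OxLDL in sh-Luc they were 2 with library size alone, 10 with only the groups compared, 12 without both libraries that stand apart and 7 with DESeq2. Between the untreated lines they were 15 with library size alone, 2 with only the groups compared, 22 without both libraries that stand apart and 5 with the replicate block; for the interaction they were 17 with library size alone. Leaving out 1 library gave 1 to 3 for OxLDL in sh-Luc, 20 to 26 for the OxLDL response of the line labelled sh-PHLPP1, 4 to 23 between the untreated lines, 17 to 22 between the lines after OxLDL and 6 to 13 for the interaction. With library size alone, Rab10 (-0.01), Rab22a (-0.15), Rab33b (-0.03), Rab5a (-0.08), Rab7 (-0.19) and Rab15 (-0.39) were among 16 of 44 tested members that changed sign in the OxLDL response of the line labelled sh-PHLPP1, 4 of them called. That scaling moved the median of all genes to -0.46 there. It ended the calls of Rab22a, Rab33b, Rab13, Rab43, Rab21, Rab10 and Rab5a in that response, of Rab43 and Rab24 for OxLDL in sh-Luc, of Rab5c between the untreated lines, of Rab22a, Rab33b, Rab28, Rab8b, Rab5a and Rab18 between the lines after OxLDL, and of Rab2a and Rab1a for the interaction. Rab15 also changed sign there with no filter (-0.02) and DESeq2 (-0.02), was 0.00 with only the groups compared, and ran from -0.54 to 2.46 on leaving out 1 library; its interaction was 0.15 with the replicate block and 2.20 without both libraries that stand apart, and ran from -0.87 to 2.13 on leaving out 1 library. Libraries of the same replicate number share a passage number, and the main fit did not pair them. Their deviations from the group means showed no steady correlation. For OxLDL in sh-Luc the correlations were 0.16, 0.0304 and -0.0302, and between the untreated lines -0.154, -0.278 and 0.277. With 3 libraries a group, such values cannot show whether the samples are paired. The replicate block gave 24 members called for the OxLDL response of the line labelled sh-PHLPP1, 22 between the lines after OxLDL, 10 for the interaction and 4 for OxLDL in sh-Luc. Genes of few counts, such as Rab33a and Rab30, are limited by depth.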
